A study of Mus musculus with 4 samples.

Results

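The SLAM family receptors and their SAP adaptors were followed in CD4+ T cells that had been cultured under T follicular helper (Tfh) conditions with or without MEK1 and MEK2. The 8 genes Slamf1, Slamf6, Slamf7, Ly9, Cd84, Cd48, Sh2d1a and Sh2d1b1 were taken by gene symbol from the 54752 genes counted. The list was chosen with earlier results of these data known. RNA came from 2 WT and 2 Mek1/2-tKO libraries of day 3. The tKO mice carried floxed alleles of both kinase genes, Map2k1 fl/fl and Map2k2 fl/fl, together with Cd4-Cre, a Cre recombinase under the Cd4 promoter that acts in T-lineage cells, and the WT mice were their littermates, all on a C57BL/6 background; the age of the mice used for these libraries is not given in the sources used here. In both genotypes, naïve CD4+ T cells of the spleen were activated through CD3 and CD28 with IL-6 and with antibodies that neutralize TGF-β, IL-4, IFN-γ and IL-2, and viable cells were sorted before RNA was extracted. The labels do not say that the libraries of a genotype came from separate mice or cultures, so the p values measure the spread between these libraries, which may be technical.

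SLAM receptors are immunoglobulin-type surface proteins that join lymphocytes to each other, most of them by binding the same receptor on the opposite cell. Tyrosine motifs in the tails of several of them recruit SAP, the product of Sh2d1a, which brings in the kinase FYN. Without SAP the same motifs can bind inhibitory phosphatases. SAP is needed in Tfh cells for lasting contact with B cells and for germinal centers, and loss of SAP in humans causes X-linked lymphoproliferative disease. EAT-2, the product of Sh2d1b1, is a related adaptor best known from NK cells. Several of the receptors are also made by B cells and NK cells.

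Of the 8 genes, Slamf1 had the largest difference that passed the test and was 3.94-fold lower in Mek1/2-tKO. Cd48 was 1.52-fold higher. Slamf7 and Ly9 differed by less than the 1.5-fold threshold, in opposite directions, and Slamf6, Cd84, Sh2d1a and Sh2d1b1 did not pass the test. To be called, a gene had to reach an adjusted p under 0.05 (edgeR's quasi-likelihood test, Benjamini-Hochberg adjustment over 14330 genes) and differ by 1.5-fold or more. By that rule 1 of the 8 rose and 1 fell, against 35.8% of all tested genes called, 19.3% higher and 16.4% lower. By the adjusted p alone 2 of the 8 were higher and 2 lower, against 55.0% of all genes, 27.8% higher and 27.2% lower. Both shares lie near or below the background, so the count of calls sets these genes apart from no others. The median log2 fold change of the 8 genes was 0.17, beside 0.02 over all tested genes. Levels are given as CPM, the count of a gene relative to its library's total after scaling by edgeR's TMM factors. The summed level of the 8 was 534 to 541 CPM in WT and 480 to 517 CPM in Mek1/2-tKO.

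**Figure D1:**
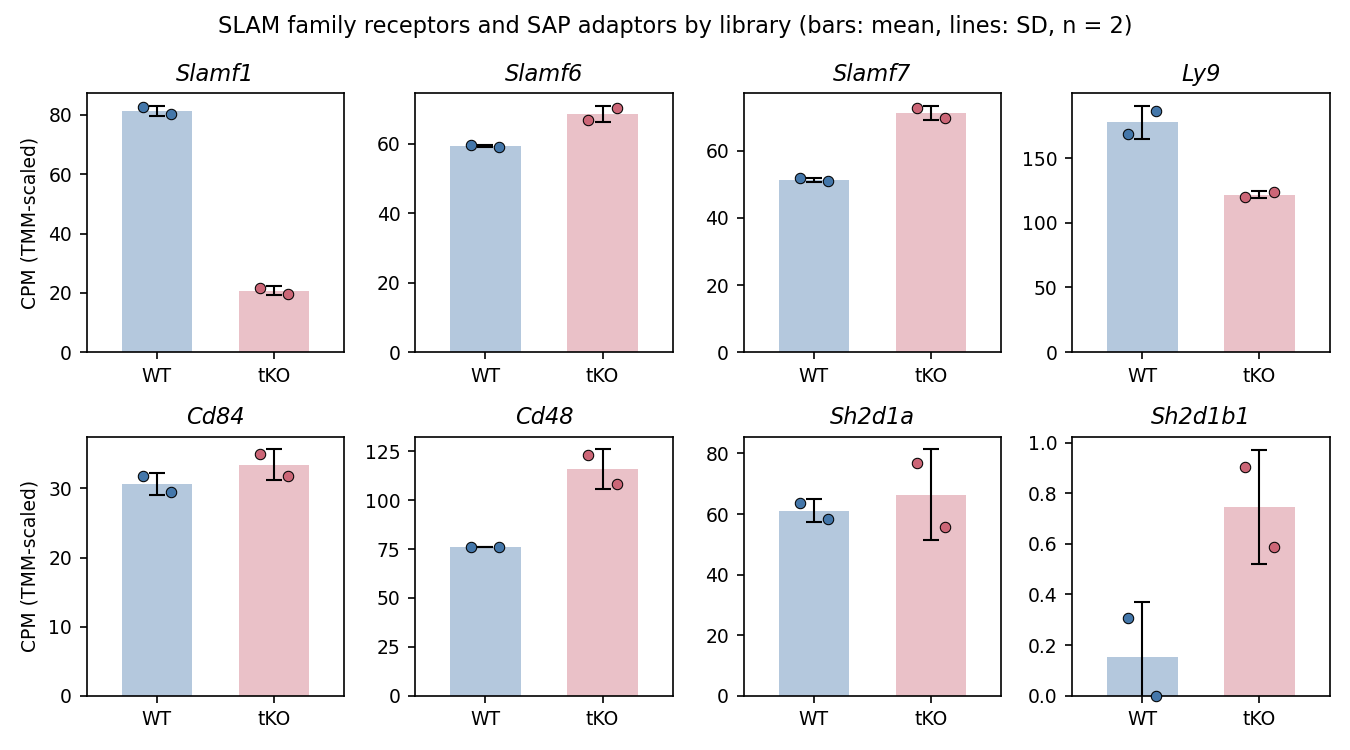
Level of each of the 8 genes in every library, in CPM on a linear axis that differs between panels. Points are libraries, bars the mean and SD of 2 libraries of a genotype; the SD bar of Sh2d1b1 in WT is cut at 0. The Slamf1 points of Mek1/2-tKO, 19.6 and 21.8 CPM, lie far below those of WT, 80.2 and 82.6 CPM, while the Sh2d1a points of the genotypes overlap.

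The libraries held 16330802 to 18931090 counts. A count of 0 was read as up to 3 counts, about the 1-sided 95% Poisson limit, which corresponds to 0.158 to 0.184 CPM. This limit covers counting error only. Mitochondrial genes took 1.56 to 2.24% of the counts. Map2k1, which encodes MEK1, had 182 and 187 CPM in WT and 98.0 and 105 CPM in Mek1/2-tKO and fell by 0.86 on the log2 scale (adjusted p = 1.29e-06, edgeR's quasi-likelihood test). Map2k2, which encodes MEK2, gave 0.15 (adjusted p = 0.126 by the same edgeR test), and a count over the whole gene cannot show whether the floxed exons were gone. An exact two-sided permutation test of 2 libraries against 2 cannot go below 0.333, so every adjusted p rests on a variance fitted across all genes.

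The labelled cell type was checked against marker lists. Over all tested genes, 19.3% were called higher and 16.4% lower, which is the share to set beside each count below. Of 11 T-cell markers 1 rose and 5 fell, with a summed level of 2994 to 2999 CPM in WT and 2499 to 2705 CPM in Mek1/2-tKO, and the log2 fold change was -3.73 for Cd4 and -1.06 for Cd3e. Not all of this list was lower: Thy1 rose by 0.83, and Cd3d (0.20), Trbc1 (0.16) and Trbc2 (-0.03) did not pass (these 4 were chosen after their values were seen). All 12 B-lineage markers rose, from 1297 to 1313 CPM to 6868 to 6899 CPM, including Cd79a (3.43 on the log2 scale). Of 9 NK-cell markers 8 rose and 1 fell, from 122 to 125 CPM to 727 to 802 CPM, with Ncr1 at 15 and 16 counts in WT and 178 and 185 counts in Mek1/2-tKO. The CD4+ T-cell label therefore stands beside a low Cd4 level and high B-lineage and NK-cell transcripts in both Mek1/2-tKO libraries. The 5 tested gamma-delta T-cell markers of 6 rose, from 4.36 to 6.98 CPM to 166 to 185 CPM (Trdc 5.12 on the log2 scale), as did both CD8 genes, from 59.3 to 67.4 CPM to 214 to 238 CPM (Cd8a 2.06). The 6 tested myeloid markers of 10 rose from a summed 4.77 to 5.29 CPM over the whole list to 24.2 to 29.3 CPM (Lyz2 3.97), and 3 of the 10 were at 0 in both WT libraries. Of 5 plasma-cell markers, 4 of them tested, 1 rose, from a summed 205 to 229 CPM to 348 to 389 CPM, while Sdc1 gave -0.13 and did not pass. These markers moved with every result below and their part in it was not tested. In bulk RNA, fewer cells of a type and less RNA per cell cannot be told apart.

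Slamf1 (CD150, ENSMUSG00000015316.11) encodes the receptor that gave the family its name and binds itself on a neighboring cell. Its level was 82.6 and 80.2 CPM in WT and 21.8 and 19.6 CPM in Mek1/2-tKO, from 1609, 1546, 337 and 368 reads. Both Mek1/2-tKO libraries were low and the genotypes did not come near each other. The log2 fold change was -1.98 (standard error 0.11, 95% interval -2.22 to -1.74, adjusted p = 6.46e-09, edgeR's quasi-likelihood test). It stayed between -2.06 and -1.91 under all 11 alternatives of test, scaling, filter and left-out library.

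Ly9 (CD229, SLAMF3, ENSMUSG00000004707.14), a self-binding receptor of T and B cells, had the highest CPM of the 8 genes in WT. The libraries gave 168 and 187 CPM in WT and 120 and 124 CPM in Mek1/2-tKO, with no overlap. The log2 fold change of -0.54 (standard error 0.08, 95% interval -0.72 to -0.36) passed the adjusted p (9.67e-05, edgeR's quasi-likelihood test) but, at 1.46-fold lower, not the fold threshold. With scaling by library size alone it was -0.63 and without WT replicate 1 it was -0.62, both past the threshold.

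Slamf6 (Ly108, ENSMUSG00000015314.10) and Cd84 (SLAMF5, ENSMUSG00000038147.13) are self-binding receptors known for holding T and B cells together in germinal center reactions. Slamf6 had 59.6 and 59.1 CPM in WT and 66.9 and 70.2 CPM in Mek1/2-tKO. The Mek1/2-tKO libraries lay a little above the WT libraries, and the log2 fold change of 0.21 (95% interval 0.0016 to 0.41) had an adjusted p of 0.0817 (edgeR's quasi-likelihood test); without Mek1/2-tKO replicate 1 the adjusted p was 0.0378, with the fold threshold still not met. Cd84 had 31.8 and 29.5 CPM in WT and 35.0 and 31.8 CPM in Mek1/2-tKO, where the lower Mek1/2-tKO library was level with the higher WT library. Its log2 fold change was 0.12 (95% interval -0.14 to 0.38, adjusted p = 0.411, same edgeR test). These intervals do not show equal levels; they leave a rise of up to 0.41 for Slamf6 and 0.38 for Cd84 on the log2 scale.

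Slamf7 (CRACC, ENSMUSG00000038179.13) is a self-binding receptor known from NK cells and plasma cells. It had 51.8 and 51.0 CPM in WT and 72.7 and 69.7 CPM in Mek1/2-tKO, both Mek1/2-tKO libraries being higher. The log2 fold change of 0.47 (standard error 0.10, 95% interval 0.26 to 0.68) passed the adjusted p (0.00103, edgeR's quasi-likelihood test) and at 1.38-fold missed the fold threshold. Of its exon bases 9.24% are overlapped on the other strand by Gm37787, which had 2 to 6 reads in a library.

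Cd48 (SLAMF2, ENSMUSG00000015355.13) is held in the membrane by a lipid anchor, has no tail of its own, and binds CD2 and CD244 rather than itself. It had 76.0 and 76.1 CPM in WT and 123 and 109 CPM in Mek1/2-tKO. Both Mek1/2-tKO libraries were higher, replicate 1 more so, and the gene rose by 0.61 on the log2 scale (standard error 0.09, 95% interval 0.41 to 0.81, adjusted p = 9.66e-05, edgeR's quasi-likelihood test). This lies just past the fold threshold and fell short of it with library-size scaling (0.52) and without Mek1/2-tKO replicate 1 (0.51).

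The partners of Cd48 moved in opposite directions. Cd2, an adhesion receptor of lymphocytes, had 255 and 264 CPM in WT and 109 and 114 CPM in Mek1/2-tKO. It fell by 1.22 on the log2 scale, 2.32-fold (standard error 0.08, adjusted p = 2.37e-08, edgeR's quasi-likelihood test). Cd244a (2B4, a receptor of NK and cytotoxic T cells) had 43 and 29 reads in WT and 86 and 84 reads in Mek1/2-tKO, and rose by 1.43 (standard error 0.35, adjusted p = 0.00318, same edgeR test). Per length, as RPKM (the CPM divided by the exon length in kilobases), the order of ligand and receptor transcripts was turned around. Cd48 was at 0.436 and 0.423 times the level of Cd2 in the WT libraries. In the Mek1/2-tKO libraries Cd48 was at 1.65 and 1.39 times that level. In CPM, Cd48 passed Cd2 in Mek1/2-tKO replicate 1 (123 against 109) but not in replicate 2 (109 against 114).

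Sh2d1a (SAP, ENSMUSG00000005696.11), an adaptor of several of the receptors, was the member whose genotypes overlapped. Its level was 63.7 and 58.5 CPM in WT and 77.0 and 55.8 CPM in Mek1/2-tKO, so that Mek1/2-tKO held both the highest and the lowest library. The log2 fold change was 0.12 (standard error 0.13, 95% interval -0.17 to 0.40, adjusted p = 0.477, edgeR's quasi-likelihood test), so it did not pass. The value rested on which Mek1/2-tKO library was kept: it was -0.13 without replicate 1 (adjusted p = 0.314, same edgeR test) and 0.33 without replicate 2, which passed the adjusted p (0.00557) but not the fold threshold. Tenm1 overlaps 26.6% of its exon bases on the other strand and had 0 reads in all 4 libraries.

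Sh2d1b1 (EAT-2, ENSMUSG00000102418.1) was barely detected, with 6 and 0 reads in WT and 14 and 11 reads in Mek1/2-tKO. The sums of 6 reads (95% exact Poisson interval 2.20 to 13.1) and 25 reads (16.2 to 36.9) do not share an interval, but these cover counting error only. The fitted log2 fold change of 2.21 (95% interval 0.07 to 4.35) had an adjusted p of 0.0752 by edgeR's quasi-likelihood test; the likelihood-ratio test and the fit without WT replicate 1 took it past the threshold, but the latter leaves a single WT library with 0 reads and gives no usable fold change. Sh2d1b2, a neighboring near-copy that can compete for uniquely mapped reads, had 0 and 0 reads in WT and 2 and 0 in Mek1/2-tKO and was not tested, so that the division of reads between the copies is uncertain.

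Slamf8 and Slamf9, receptors with short tails best known from myeloid cells, were as scarce. Slamf8 had 10 and 2 reads in WT and 42 and 23 reads in Mek1/2-tKO and rose by 2.63 on the log2 scale (standard error 0.74, adjusted p = 0.00802, edgeR's quasi-likelihood test); the call was lost without WT replicate 2 (1.91) and without Mek1/2-tKO replicate 1 (1.96). Slamf9 had 9 and 13 reads in WT and 34 and 22 reads in Mek1/2-tKO and rose by 1.55 (standard error 0.60, adjusted p = 0.0432, same edgeR test), a call lost in 7 of 10 alternatives. Of the 5 listed relatives and partners, 4 were tested, 3 rose and 1 fell, with a median log2 fold change of 1.49, beside 19.3% higher and 16.4% lower over all tested genes.

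**Figure D2:**
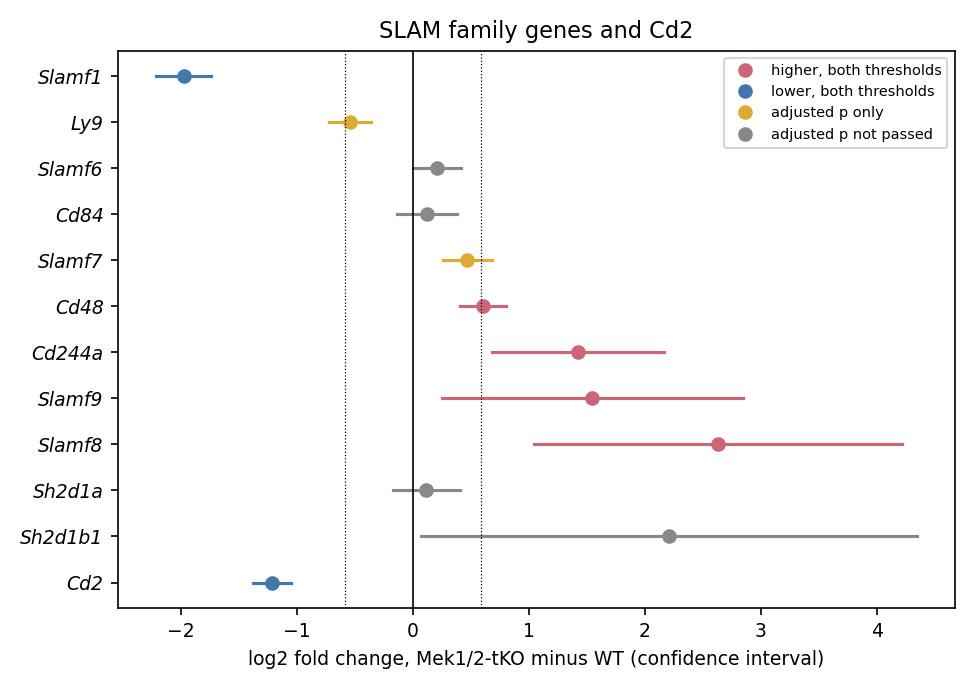
Log2 fold change, Mek1/2-tKO minus WT, of the 8 genes and of 4 relatives and partners, with the 95% interval of edgeR's fit; dotted lines mark a fold change of 1.5 in either direction and colors the outcome of the test. Slamf1 (-1.98) and Cd2 (-1.22) lie to the left of the threshold, Cd48 (0.61) just to the right of it, and the scarce genes Slamf8, Slamf9 and Sh2d1b1 have the widest intervals.

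The order of the levels, compared per length as RPKM, changed mainly at Slamf1. In WT the mean was 64.0 for Cd48, 53.7 for Ly9, 13.2 for Slamf1, 11.2 for Slamf7, 11.1 for Sh2d1a, 5.48 for Slamf6, 4.89 for Cd84 and 0.061 for Sh2d1b1. In Mek1/2-tKO it was 97.4 for Cd48, 36.8 for Ly9, 15.6 for Slamf7, 12.1 for Sh2d1a, 6.33 for Slamf6, 5.33 for Cd84, 3.36 for Slamf1 and 0.29 for Sh2d1b1. Slamf1 thus went from the third place to the last among the well-detected members, and the others kept their order. In WT the neighbors Slamf7 and Sh2d1a overlapped between libraries, and no other neighbors did in either genotype.

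As shares of the summed RPKM of the 6 receptors, Cd48 and Ly9 made up most in both genotypes. The share of Cd48 was 42.0% ± 0.837 in WT and 59.0% ± 2.14 in Mek1/2-tKO (SD, n = 2 each), and that of Ly9 was 35.2% ± 1.79 and 22.4% ± 1.68. Slamf1 held 8.67% ± 0.368 in WT and 2.04% ± 0.0443 in Mek1/2-tKO, the largest relative change of the 6. Slamf7 went from 7.37% ± 0.246 to 9.45% ± 0.213, while Slamf6 (3.60% ± 0.0974 and 3.85% ± 0.336) and Cd84 (3.21% ± 0.240 and 3.23% ± 0.0467) overlapped between genotypes. Shares add up to a whole, so that a lower share of one receptor raises the others.

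**Figure D3:**
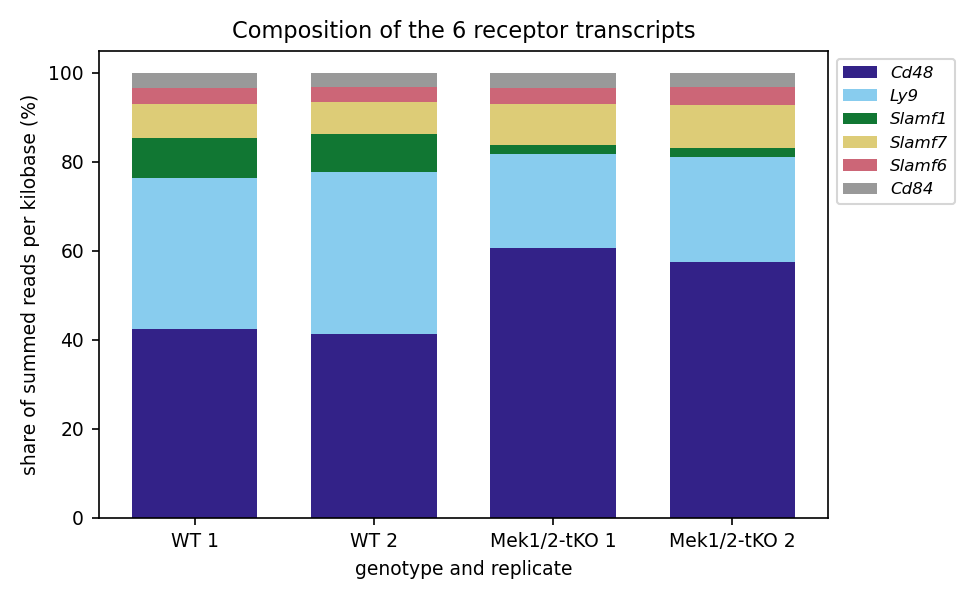
Share of each receptor in the summed RPKM of the 6 receptors, in percent, for each library. Slamf1 takes 8.41 and 8.93% of the sum in the WT libraries and 2.01 and 2.07% in the Mek1/2-tKO libraries, and Cd48 takes the largest part in all 4.

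Ratios between members restate these differences within each library. The RPKM ratio of Slamf6 to Slamf1 was 0.410 and 0.419 in WT and 1.75 and 2.04 in Mek1/2-tKO, which follows from the fall of Slamf1, and that of Cd48 to Ly9 was 1.25 and 1.13 against 2.86 and 2.44. No test was made of them.

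The genes through which the receptors signal were read from a list of 19, all of them tested. Of these 3 rose, 6 fell and 10 did not meet both criteria, with a median log2 fold change of -0.18; by the adjusted p alone 5 were higher and 8 lower. Over all tested genes 19.3% rose and 16.4% fell, and 27.8% and 27.2% did so by the adjusted p alone. Fyn, the kinase that SAP brings to the receptor, had 192 and 193 CPM in WT and 112 and 122 CPM in Mek1/2-tKO. It fell by 0.71 on the log2 scale (standard error 0.08, adjusted p = 6.82e-06, edgeR's quasi-likelihood test). It was the smallest of the 6 falls. The largest were those of Plcg1, a phospholipase C of T-cell receptor signaling, of Nfkb1, the p105/p50 subunit of NF-κB, and of Ptpn11, the phosphatase SHP-2.

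Plcg1 had 85.6 and 83.5 CPM in WT and 23.8 and 23.9 CPM in Mek1/2-tKO, a log2 fold change of -1.83 (adjusted p = 8.11e-09, edgeR's quasi-likelihood test). Nfkb1 had 711 and 720 CPM against 340 and 392 CPM, or -0.97, and Ptpn11 165 and 174 CPM against 92.6 and 94.7 CPM, or -0.85. These 3 were named for having the largest falls, so their separation between genotypes follows from that choice. Among the genes that rose were Plcg2, the phospholipase C of B-cell and NK-cell receptors, and Dok1, an adaptor that restrains signaling. Plcg2 had 41.1 and 43.3 CPM in WT and 80.4 and 95.0 CPM in Mek1/2-tKO, a log2 fold change of 1.06 (adjusted p = 2.49e-06, same edgeR test). Dok1 gave 0.81 (31.7 and 32.4 CPM against 55.5 and 56.9 CPM, adjusted p = 2.29e-05, same edgeR test). Per length, Plcg2 was at 0.877 and 0.949 times the level of Plcg1 in WT and at 6.18 and 7.28 times in Mek1/2-tKO, so that the prevailing phospholipase C gamma transcript differed between genotypes. The B-lineage markers rose in the same libraries, and their part in this was not tested.

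**Figure D4:**
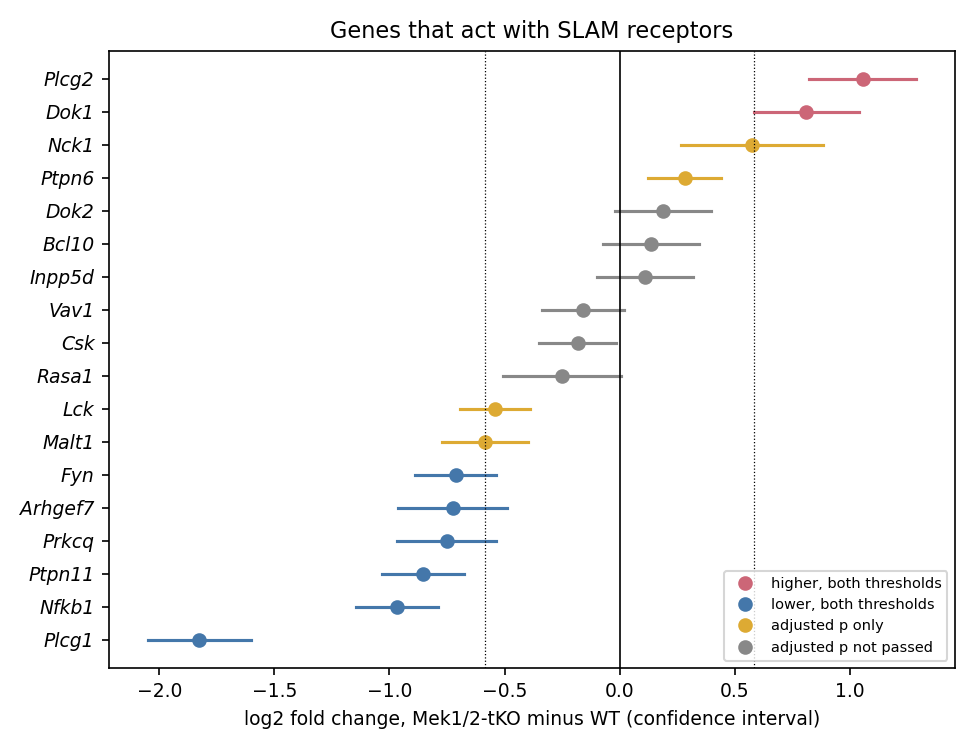
Log2 fold change, Mek1/2-tKO minus WT, of the listed genes of SLAM receptor signaling, except 1 that is counted but not shown, with the 95% interval of edgeR's fit; dotted lines mark a fold change of 1.5. Plcg1 (-1.83) lies lowest and Plcg2 (1.06) highest, and 10 of the 19 listed did not meet both the adjusted p and the fold criterion.

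Apart from Sh2d1a on the X chromosome (GRCm38, chrX:42502453-42529330, plus strand), the members lie on chromosome 1. Ly9 (chr1:171588624-171607410), Slamf7 (chr1:171632403-171653035), Cd48 (chr1:171682009-171705258), Slamf1 (chr1:171767127-171801184), Cd84 (chr1:171839697-171890718) and Slamf6 (chr1:171917515-171953170) follow each other within 394 kb that start with Cd244a, Ly9 and Slamf7 on the minus strand and the rest on the plus strand. The annotated span of Ly9 lies inside that of Cd244a on the other strand, with no shared exon bases. Sh2d1b1 (chr1:170277320-170286769) lies apart from them. Neighbors in the cluster did not move together: the family receptors nearest to Slamf1 (-1.98) are Cd48 (0.61) on one side and Cd84 (0.12) on the other. Within 1000 kb of the start of Slamf1, 4 of the 9 tested family receptors rose and 1 fell (median log2 fold change 0.47, from -1.98 to 2.63), while of the 40 other tested genes 13 rose and 2 fell (median 0.17, from -1.70 to 6.17). Over all tested genes 19.3% were called higher and 16.4% lower. Of the family receptors that rose, Cd244a, Slamf8 and Slamf9 were scarce, with a mean of 1.86, 0.31 and 0.57 CPM in WT, while Cd48 had 76.0 CPM. Genes in 1 region are not independent of each other and no test was made.

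**Figure D5:**
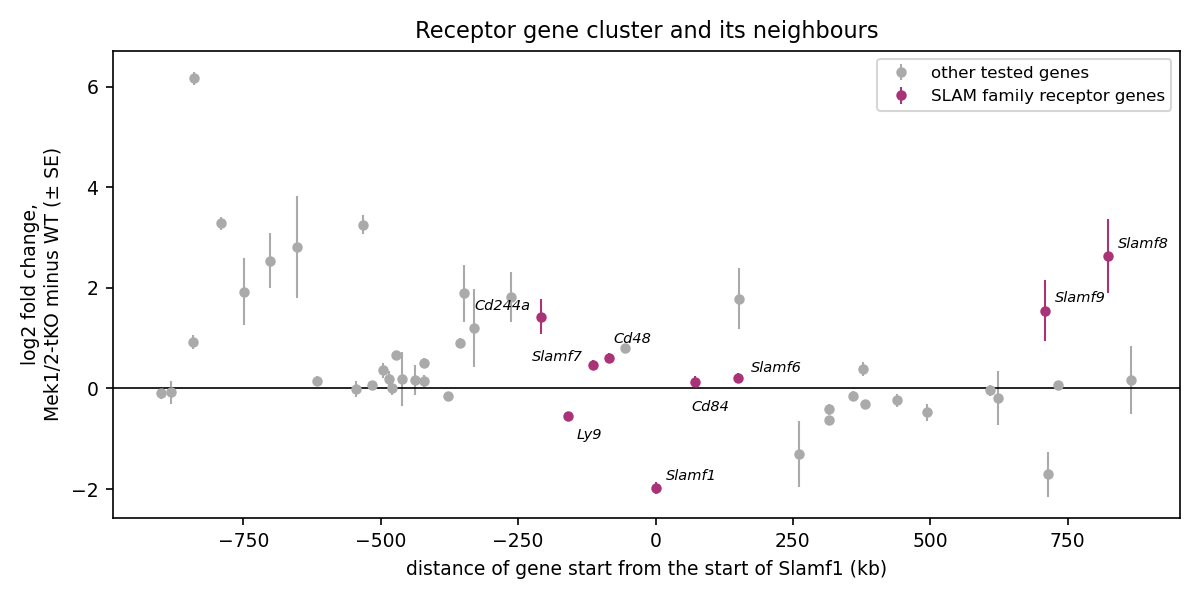
Log2 fold change, Mek1/2-tKO minus WT, of the genes tested within 1000 kb of the start of Slamf1, by distance from that start in kb; lines are standard errors, family receptors are named and colored, and other genes are grey. Slamf1 (-1.98) is the lowest point and the receptors next to it, Cd48 (0.61) and Cd84 (0.12), lie above 0.

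The promoters of 3 members are printed because these members passed the adjusted p and have a RefSeq entry. They run from 250 bases before to 50 bases after the RefSeq start (GRCm38.p6), on the strand of the gene; 6 of the 8 members matched, and Ly9 and Sh2d1a were not matched. Capitals mark matches, on either strand, to an AP-1 motif (TGANTCA), an ETS core (CCGGAA) or a RUNX core (TGTGGT); no match overlaps another motif. Slamf1 (chr1:171766882-171767181, plus strand) holds none of the 3, Cd48 (chr1:171681742-171682041, plus strand) holds a RUNX match at -76 and an ETS match at 7 from the start, and Slamf7 (chr1:171648950-171649249, minus strand) holds an AP-1 match at -42.
Slamf1: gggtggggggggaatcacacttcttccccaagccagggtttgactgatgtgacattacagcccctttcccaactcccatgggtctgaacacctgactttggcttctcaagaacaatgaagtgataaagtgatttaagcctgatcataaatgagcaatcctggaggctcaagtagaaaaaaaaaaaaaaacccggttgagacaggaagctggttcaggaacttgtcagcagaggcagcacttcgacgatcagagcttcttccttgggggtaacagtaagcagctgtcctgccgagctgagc
Cd48: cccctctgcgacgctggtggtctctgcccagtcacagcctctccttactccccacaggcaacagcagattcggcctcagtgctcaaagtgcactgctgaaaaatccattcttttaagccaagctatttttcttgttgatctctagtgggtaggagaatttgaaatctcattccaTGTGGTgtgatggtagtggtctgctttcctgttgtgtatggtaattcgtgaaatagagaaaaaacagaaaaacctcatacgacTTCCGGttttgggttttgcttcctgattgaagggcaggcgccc
Slamf7: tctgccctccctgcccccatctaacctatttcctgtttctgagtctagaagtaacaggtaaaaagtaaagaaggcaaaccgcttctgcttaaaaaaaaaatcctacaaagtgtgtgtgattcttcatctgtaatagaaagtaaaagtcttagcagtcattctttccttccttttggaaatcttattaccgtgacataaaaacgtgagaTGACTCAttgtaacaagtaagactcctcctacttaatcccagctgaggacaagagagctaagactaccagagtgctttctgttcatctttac
Of 32851 promoters of this length, 7.81% hold the AP-1 letters, 14.9% the ETS letters and 16.8% the RUNX letters, so that each match is common. Of the other matched members, Cd84 holds an AP-1 match at -229 and a RUNX match at -45, Slamf6 holds none, and Sh2d1b1 holds 2 AP-1 matches and a RUNX match at -54. A match is a run of letters and not a bound site. The Slamf7 promoter lies inside the span counted for that gene (chr1:171632403-171653035), so its RefSeq start is not the outermost annotated start.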

How the data were processed

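RNA-seq libraries of WT and Mek1/2-tKO cells were compared on day 3. Per the labels and the study's methods, the authors trimmed reads with Trimmomatic 0.36, mapped them to GRCm38 with a mapper written STRA, counted uniquely mapped reads with featureCounts (Subread 1.5.1) and deposited raw counts per gene, with no normalization; the submitters' processing notes also name DESeq2 1.40.1 and R 4.3.0. Which annotation release was counted, and whether by strand, is not given in the sources used here. Without a strand setting, reads over exon bases shared with an antisense partner may have been given to either gene or left out.

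The deposited counts of all 54752 identifiers (54723 with a symbol) were fitted in edgeR 4.0.16 (R 4.3.3) after filterByExpr and TMM scaling, with the robust form of the quasi-likelihood test and Benjamini-Hochberg adjustment over 14330 genes. Calls needed an adjusted p under 0.05 together with a 1.5-fold change or more. The fitted common dispersion of 0.00842 corresponds to a biological coefficient of variation of 0.0918. CPM were scaled by TMM, and RPKM used the length column of the files. Chi-square per gene between replicates was 4.19 in WT and 10.9 in Mek1/2-tKO, so the replicates are not copies. Summaries and plots were made with pandas 2.3.3, matplotlib 3.10.9 and scipy 1.17.1 in Python 3.11.15. In counts simulated at the common dispersion, the fit recovered 197 of 200 genes changed 2-fold and called 9 unchanged genes. The changed genes were few and well counted. The simulation therefore does not speak for scarce genes or for data with 35.8% of genes called. Promoters were taken from RefSeq (GRCm38.p6).

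The 8 members, the gene lists and the alternatives were chosen with earlier results of these data known. Named were the 8 members, Cd244a, Slamf8, Slamf9, Sh2d1b2, Cd2, Fyn, the 3 called signaling genes with the largest change each way, Map2k1, Map2k2, the defining cell markers, and the 3 genes with the profile nearest to that of the member with the largest absolute log2 fold change. The alternatives were another test (DESeq2 1.42.0 or edgeR's likelihood-ratio test), another scaling (by DESeq2's size factors or by library size), another filter (none, or a minimum of 10 counts in each library), a replicate block, another threshold (an adjusted p under 0.01 or a 2-fold change), leaving out each library and, for the receptor shares, raw counts or more receptors in the sum. An adjusted p alone was added after seeing the data. Some listed genes are counted in their lists but are not reported here by name.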

Additional observations from a re-analysis of the deposited data

How the results depend on the processing

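Under DESeq2, DESeq2's size factors, no filter and the likelihood-ratio test, Slamf1, Ly9, Slamf7, Cd48, Slamf6, Cd84, Sh2d1a, Cd244a and Cd2 kept their direction and their side of the threshold. With 2 libraries a group, genes with few reads, such as Sh2d1b1, Slamf8 and Slamf9, are poorly resolved. Library-size scaling shifted the median of all genes by -0.08 on the log2 scale, called 0 members higher and 2 lower, and put Cd48 at 0.52 and Ly9 at -0.63. The likelihood-ratio test called 2 members higher, the second being Sh2d1b1. Leaving out a library called 0 to 2 members higher and 1 to 2 lower: 0 higher without Mek1/2-tKO replicate 1, and 2 higher and 2 lower without WT replicate 1. Among the relatives and partners it called 1 to 3 higher, 1 without WT replicate 2 and 1 without Mek1/2-tKO replicate 1. Requiring 10 counts in every library also called 1 higher, since Slamf8 and Slamf9 did not reach that count and were not tested. Sh2d1a was the one gene to change sign, at -0.13 without Mek1/2-tKO replicate 1 (leave-out range -0.13 to 0.33). Slamf9 ranged from 1.04 to 1.93 when a library was left out.

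With a fold change of at least 2, 1725 genes were called higher and 1040 lower, 0 members higher, and 1 signaling gene in each direction. With the adjusted p alone, 3903 genes were lower, 2 members higher and 2 lower, and 5 signaling genes higher. As shares of raw counts, in WT and in Mek1/2-tKO, Slamf1 took 17.1 and 4.79%, Slamf6 12.5 and 15.9%, Slamf7 10.8 and 16.5%, Ly9 37.2 and 28.2%, Cd84 6.44 and 7.75%, and Cd48 16.0 and 26.8%; here longer transcripts weigh more. With Cd244a, Slamf8 and Slamf9 in the sum, Cd84 took 3.18% in Mek1/2-tKO.

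The labels give both genotypes replicates 1 and 2, with no word on what a number stands for. Deviations of libraries with the same number correlated at -0.00926 across genes, so no shared deviation was seen. With 1 difference per genotype, this cannot settle whether libraries of the same number were handled together. With a replicate block, 2652 genes were called higher and 2300 lower, beside 2768 and 2355 without it. The block left 1 member higher and 1 lower, and of the family genes only Slamf9 lost its call (log2 fold change 1.50, adjusted p = 0.0839, edgeR's quasi-likelihood test).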

Other observations

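For the member with the largest absolute log2 fold change, Sh2d1b1, the 3 tested genes with the nearest profile over the 4 libraries (Euclidean distance of log2 CPM) were Gm12678 (0.328), Gm6093 (0.344) and Gm19265 (0.456), all with at most 1.16 CPM in any library, where profiles are set by a few reads. For Slamf1, which was added to this look-up after its values were seen, they were Izumo1r, the folate receptor FR4 of T cells (distance 0.304, log2 fold change -1.68), Plcg1 (0.319, -1.83) and Lef1, a transcription factor of naïve and early Tfh cells (0.344, -1.77). Izumo1r had 71.7 and 72.9 CPM in WT and 24.2 and 21.0 CPM in Mek1/2-tKO, and Lef1 84.5 and 77.2 CPM against 22.7 and 24.7 CPM. Their separation between genotypes follows from the choice by profile. A distance over 4 libraries reflects level and genotype difference alone, and many genes with a similar level and fold change would lie as near.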
